A study of Mus musculus with 6 samples.

Results

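The cytosolic ribosomal protein genes encode the proteins of the ribosomes that translate nuclear-encoded mRNA. They were taken from the expression table by symbol, as every gene named Rpl or Rps followed by a number, with or without the letter a, l or x, together with Rplp0, Rplp1, Rplp2 and Rpsa, and the S6 kinase genes were left out. This gave 79 of the 17933 genes in the table, 48 of the large subunit and 31 of the small subunit. All 79 averaged at least 1 FPKM (sequenced fragments scaled to gene length and library size) over the 6 samples, the level set for testing. The samples were whole kidneys of wild-type male C57BL/6 mice aged 6 to 8 weeks. In the stone group (n = 3) the mice received glyoxylic acid, a precursor of oxalate, at 120 mg/kg into the peritoneum daily for 12 days, which is used to form calcium oxalate crystals in the kidney. The control group (n = 3) received the same volume of saline. The comparison asks which transcripts differ between glyoxylic acid and control kidneys. Crystals come here from an injected precursor, and RNA of all kidney cells was measured together, so fewer cells of a type and less RNA per cell cannot be told apart.

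Each ribosome carries a small subunit, which decodes the mRNA, and a large subunit, which joins amino acids, and most ribosomal proteins are present in a single copy per ribosome. Their mRNAs are among the most abundant of the cell and belong to the TOP class (terminal oligopyrimidine). TOP mRNAs begin with a C followed by an unbroken run of C and U, through which the kinase mTORC1 and the RNA-binding protein LARP1 control their translation and stability. Growing tissue needs many ribosomes, and injured kidney epithelium regrows after damage. Several ribosomal proteins also act outside the ribosome, such as RPL5 and RPL11, which bind MDM2 and stabilise p53.

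The sequences around the gene starts show what these genes share. Of the 79 genes, 59 had a promoter in the RefSeq sequences of GRCm38.p6, which run from 250 bases before to 50 bases after each annotated start. A C followed by at least 7 bases that are each C or T lay within 50 bases of a start, on the sense strand, in 51 of the 59 (86.4%), against 32% of all 27025 genes with a promoter. Windows of 30 bases are shown for genes with large rises (Rpl10a, Rpl36a, Rps18, Rpl12), for the 5 with the highest levels (Rps27, Rpl38, Rpl41, Rpl10, Rps26) and for those with a log2 fold change below 0 (Rps6, Rps27l, Rpl3l), in lower case with the run in capitals, 5′ to 3′ on the gene's strand:
Rpl10a (chr17:28328572-28328601, plus strand): aagcgctctgCCTTCTTTCCggtttccgcg
Rpl36a (chrX:134585672-134585701, plus strand): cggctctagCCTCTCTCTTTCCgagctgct
Rps18 (chr17:33955648-33955677, minus strand): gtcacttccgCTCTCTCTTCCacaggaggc
Rpl12 (chr2:32961732-32961761, plus strand): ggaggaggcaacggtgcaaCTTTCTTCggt
Rps27 (chr3:90213632-90213661, minus strand): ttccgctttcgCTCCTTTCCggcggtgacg
Rpl38 (chr11:114668569-114668598, plus strand): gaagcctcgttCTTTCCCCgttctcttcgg
Rpl41 (chr10:128549119-128549148, minus strand): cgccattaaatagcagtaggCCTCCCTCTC
Rpl10 (chrX:74270836-74270865, plus strand): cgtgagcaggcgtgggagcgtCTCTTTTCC
Rps26 (chr10:128626484-128626513, minus strand): agccgccggatCCTCTTTCgagtcttggct
Rps6 (chr4:86857349-86857378, minus strand): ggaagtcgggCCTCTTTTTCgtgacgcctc
Rps27l (chr9:66946063-66946092, plus strand): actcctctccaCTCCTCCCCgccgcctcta
Rpl3l (chr17:24727846-24727875, plus strand): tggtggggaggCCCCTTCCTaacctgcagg
The run was present in genes that rose, such as Rpl12 and Rps18, in Rps27l and Rps6, which did not pass the test, and in Rpl3l, which fell. Whether the run lies at the true first base of the mRNA was not measured.

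Short motifs in the whole 300 bases from 250 before to 50 after the start were searched on both strands. CCGGAAG, the core site of ETS factors such as GABP, was found in 24 of 59 (40.7%) against 9.93% of all genes with a promoter. GGGCGG, the GC box, was in 35 (59.3%) against 38.2%, AANATGGCG, a YY1-type site, in 5 (8.47%) against 2.76%, and TATAAA in 7 (11.9%) against 15.7%. A palindrome, whose letters are the capitals in the next set of windows, was in 6 (10.2%) against 0.525%. No pair of different motifs overlapped in these promoters (0 pairs). The palindrome is shown in its 6 genes because Rpl12 and Rpl10a, both among the 5 largest rises, carry it, as do genes with small changes:
Rpl12 (chr2:32961648-32961677, plus strand): ggccagcggtTCTCGCGAGAgctgagcttt
Rpl10a (chr17:28328524-28328553, plus strand): aacgggcaacTCTCGCGAGAacgcgggctc
Rps19 (chr7:24884574-24884603, plus strand): cactccgaaaTCTCGCGAGActcgacgccc
Rps28 (chr17:33824544-33824573, minus strand): ccgcgtgcggTCTCGCGAGAgcgaaagtga
Rpl26 (chr11:68901530-68901559, plus strand): gctccgagacTCTCGCGAGAtctcgcggca
Rps6 (chr4:86857399-86857428, minus strand): cgccggctgtTCTCGCGAGAacttagagcg
The log2 fold changes (stone minus control) of these 6 genes were 0.97 for Rpl12, 0.76 for Rpl10a, 0.63 for Rps19, 0.52 for Rps28, 0.24 for Rpl26 and -0.06 for Rps6. Of these 6 genes 5 were called higher, at 0.24 to 0.97, and Rps6 did not pass. Among all 79 members 68 were called higher (86.1%), and among all tested genes 43.5%. With the median-of-ratios factors described below, the calls of Rps28 and Rpl26 were lost (limma, adjusted p = 0.213 and 0.9). The Rps6 value is uncertain, since a pseudogene with its own row shares the Rps6 sequence, as described below. For Rps27, the most abundant member, the 250 bases before the start hold the letters AAGATGGCG (capitals), while those of its relative Rps27l hold none of CCGGAAG, AANATGGCG and the palindrome:
Rps27 (chr3:90213649-90213898, minus strand): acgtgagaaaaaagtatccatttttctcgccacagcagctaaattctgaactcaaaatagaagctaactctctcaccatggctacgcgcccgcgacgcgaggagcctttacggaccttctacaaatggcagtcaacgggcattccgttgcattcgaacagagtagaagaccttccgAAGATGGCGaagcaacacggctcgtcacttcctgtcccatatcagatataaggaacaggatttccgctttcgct
Rps27l (chr9:66945836-66946085, plus strand): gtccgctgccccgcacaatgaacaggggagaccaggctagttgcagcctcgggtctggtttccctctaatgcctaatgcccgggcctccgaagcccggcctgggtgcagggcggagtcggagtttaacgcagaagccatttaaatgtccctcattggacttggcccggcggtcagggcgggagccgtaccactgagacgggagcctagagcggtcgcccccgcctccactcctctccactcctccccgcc
A motif match describes these letters only, and binding was not measured.

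The samples as a whole set the frame for these genes. FPKM sums were 711768 to 758514 in control and 609705 to 613885 in stone samples, and Kap, a proximal tubule transcript, made up 19.3% to 23.2% of the sum in control and 1.18% to 2.26% in stone samples. Kidney identity was plain from proximal tubule markers, all 8 of which were tested, with 5 lower and 0 higher in stone kidneys. Genes were called by limma on log2(FPKM + 1) with a Benjamini-Hochberg adjusted p below 0.05 over 12319 tested genes. In the unscaled values the tested genes had a median log2 fold change of 0.21, and 43.5% of them were called higher and 13.9% lower.

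Nearly every ribosomal protein gene was higher in stone kidneys, and by a similar, modest amount. Of the 79 genes 68 rose (86.1%, against 43.5% of all tested genes), 1 fell (1.27%, against 13.9%) and 10 did not pass. The median log2 fold change was 0.461, the quartiles were 0.371 and 0.591, and 49 genes lay between 0.4 and 0.7. The stone samples all exceeded the highest control sample in 71 genes, which held for 49.8% of all tested genes, and all fell short of the lowest control sample in 1 gene, against 16.5%. Both subunits took part, with 42 of 48 large subunit genes higher and 1 lower (median 0.449) and 26 of 31 small subunit genes higher and 0 lower (median 0.519). The 74 genes above the all-gene median left Rpl3l, Rps27l, Rps6, Rpl41 and Rpl35a below it.

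**Figure D1:**
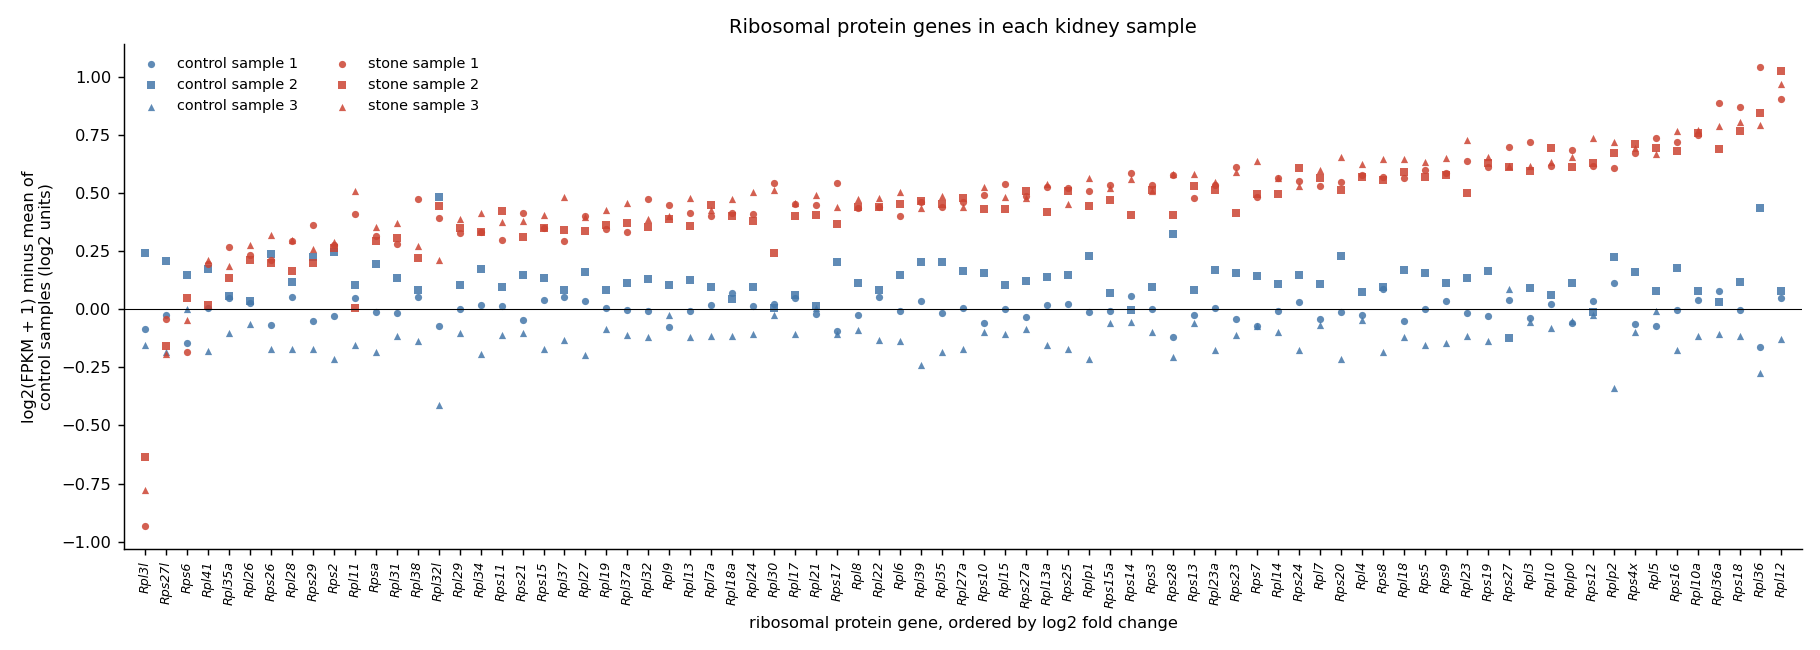
Each of the 79 ribosomal protein genes on the x axis with its 6 samples on the y axis, as log2(FPKM + 1) minus the mean of the control samples. Blue marks are control samples, red marks stone samples, and shapes give the sample number. The red marks lie above all blue marks in 71 genes, and Rpl3l at the far left is the gene whose red marks all lie below.

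The summed level shows the same in each sample. The 79 genes summed to 42905, 46759 and 39512 FPKM in control samples 1 to 3 and to 60266, 58025 and 60559 FPKM in stone samples 1 to 3. In these values as deposited the lowest stone sample was well above the highest control sample, and the mean ratio was 1.39. With the median-of-ratios factors described below the ratio was 1.16. As a share of all FPKM the genes made up 5.66%, 6.18% and 5.55% in control samples and 9.82%, 9.51% and 9.93% in stone samples, or 5.80 ± 0.336% against 9.75 ± 0.217% (SD, n = 3 each). Part of that gap goes with Kap, which held a large share of the control sums. Without Kap in the sum the shares were 7.33 ± 0.346% and 9.92 ± 0.173% (SD, n = 3 each), still separate, with a ratio of 1.35.

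**Figure D2:**
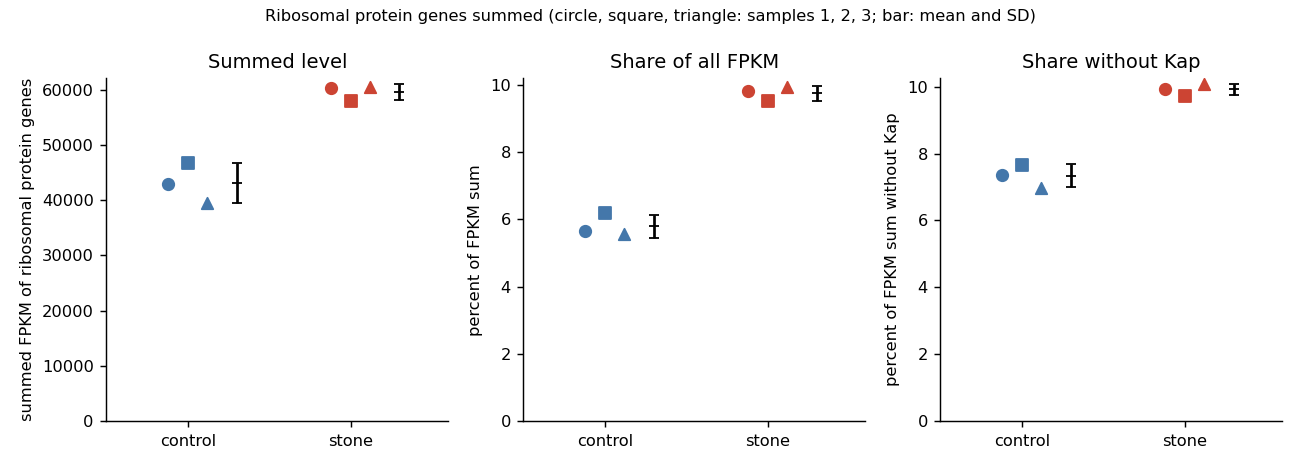
Summed FPKM of the 79 genes, their percent of all FPKM, and their percent of all FPKM without Kap, by group. Points are samples, bars are the mean and SD, and every y axis starts at 0. Stone samples lie above control samples in each panel, and the ratio of means falls from 1.68 to 1.35 when Kap is left out.

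Control samples differed among themselves along the whole gene set. Control sample 2 was the highest of the 3 in 73 of 79 genes and control sample 3 the lowest in 73. The median gene stood 0.121 above the control mean in sample 2 and 0.117 below it in sample 3 (difference -0.117), both on the log2 scale. Stone samples were closer together, with median differences of 0.481, 0.441 and 0.505 from the control mean. The median SD within the control group was 0.125 for these genes and 0.111 for all tested genes, and within the stone group 0.048 and 0.093. Without control sample 2 the median log2 fold change was 0.549 and 73 genes were called higher. Leaving out control sample 3 gave 0.409 and 66 genes. Of the 12319 tested genes 4585 were called higher without control sample 2 and 5242 without control sample 3, beside 5356 with all 6 samples.

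How much of the rise counts as a change depended on the scaling between samples. Median-of-ratios factors, which sets the typical gene near 0 (median of all tested genes -0.012), gave 25 ribosomal protein genes higher (31.6%, against 22.5% of all tested genes) and 3 lower (against 26.2%), with a median of 0.205. All 25 had also been called higher as deposited, and 43 further calls were lost. The 3 lower genes were Rpl3l, Rps27l and Rps6. With equal FPKM sums 76 genes were higher (against 68.5%) and 1 lower (against 6.47%), and after quantile normalization 75 were higher (against 22.4%) and 1 lower (against 25.2%). The median of the ribosomal protein genes minus that of all tested genes was 0.249 as deposited, 0.217 with median-of-ratios factors and 0.286 with sums made equal, but 0.546 after quantile normalization.

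Mitochondrial ribosomal protein genes serve the separate ribosomes inside mitochondria, and their median change was below 0 in the values as deposited. Of 78 such genes 3 were called higher (3.85%) and 34 lower (43.6%) as deposited, with a median of -0.214, and 0 and 57 with median-of-ratios factors. The shares of all tested genes were 43.5% higher and 13.9% lower as deposited, and 22.5% and 26.2% with median-of-ratios factors. With equal FPKM sums 20 of the 78 were higher and 5 lower, beside 68.5% and 6.47% of all tested genes. Other abundant genes had a median below 0 as deposited as well. Among 911 tested genes of other kinds with a mean of at least 100 FPKM, 210 (23.1%) were higher and 401 (44%) lower (median -0.156). The counts were 114 and 554 with median-of-ratios factors, but 392 and 222 with equal FPKM sums, to be read beside the same shares of all tested genes. These are counts side by side, and the difference between the groups of genes was not tested.

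**Figure D3:**
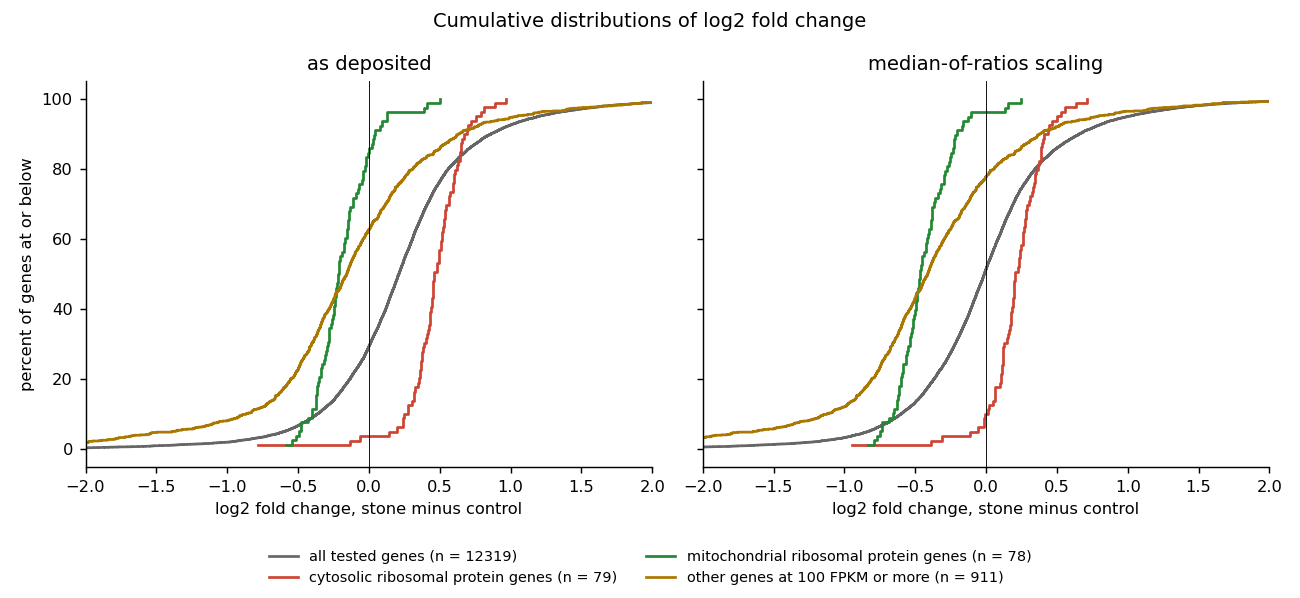
Cumulative share of genes (y axis, percent) at or below each log2 fold change (x axis, stone minus control), as deposited on the left and with median-of-ratios factors on the right. The curve of the 79 cytosolic ribosomal protein genes is steep and lies to the right of all tested genes for most of its length, with medians of 0.461 against 0.21 on the left. The 78 mitochondrial ribosomal protein genes and the 911 other genes at 100 FPKM or more lie to the left of all tested genes at their medians.

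The 4 largest rises among large subunit genes were those of Rpl12, Rpl36, Rpl36a and Rpl10a. Rpl12, whose protein forms the base of the stalk that recruits elongation factors, lies at chr2:32961712-32964045 in GRCm38.p6. Its control samples stood at 458, 467 and 405 FPKM and its stone samples at 830, 900 and 867 FPKM. The stone values were all far above the control values, with a log2 fold change of 0.97 (SE 0.079, limma, adjusted p = 0.000124), the largest of the 79. Rpl10a, the protein of the L1 stalk through which spent tRNA leaves, went from 368, 378 and 330.3 FPKM to 603, 606 and 611 FPKM, a change of 0.76 (limma, adjusted p = 0.000217). Rpl36a, near the site where tRNA exits, went from 377, 365 and 331 FPKM to 660.5, 577 and 617 FPKM, a change of 0.79 (limma, adjusted p = 0.000308). Neither gene had overlapping groups. Rpl36 had a wide control group, from 278 to 454 FPKM against 582 to 693 FPKM in stone samples, and its change of 0.89 carried an SE of 0.182 (limma, adjusted p = 0.00524).

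The acidic stalk genes rose with different certainty. Rplp0, which anchors the stalk, measured 554, 624 and 558 FPKM in control and 929, 882 and 909 FPKM in stone samples (log2 fold change 0.65, limma, adjusted p = 0.000463). Its tip proteins Rplp1 and Rplp2 rose by 0.51 and 0.67 (limma, adjusted p = 0.00925 and 0.00646), but neither call held with median-of-ratios factors (limma, adjusted p = 0.182 and 0.0663). The spread lay in the controls, where Rplp2 ranged from 327 to 485 FPKM.

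The 2 proteins that escort 5S rRNA did not give the same call. Rpl5 went from 331, 367 and 346 FPKM to 580, 563 and 553 FPKM, a rise of 0.70 (limma, adjusted p = 0.000217). Rpl11 measured 295, 306 and 256 FPKM in control and 378, 285 and 405 FPKM in stone samples. Stone sample 2 fell inside the control range, and Rpl11 did not pass (log2 fold change 0.31, limma, adjusted p = 0.0963). Without stone sample 2 Rpl11 stood at 0.46 (limma, adjusted p = 0.0135). The difference between Rpl5 and Rpl11 was not tested.

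Other large subunit genes with known places in the ribosome fell on both sides of the median. Rpl10, which joins last and completes the peptidyl transferase centre, rose from 1069 ± 54.1 to 1674 ± 46.6 FPKM (limma, adjusted p = 0.000505). Rpl3, close to the same centre, rose by 0.64, and Rpl39, which lines the exit tunnel, by 0.45 (limma, adjusted p = 0.000398 and 0.011). The Rpl39 call was lost with median-of-ratios factors (0.20, limma, adjusted p = 0.254). Rpl38, known for its part in the translation of Hox mRNAs, was at 1468, 1499 and 1289 FPKM in control and 1968, 1650.3 and 1707 FPKM in stone samples. Its rise of 0.32 (limma, adjusted p = 0.0309) was lost with median-of-ratios factors (0.07, limma, adjusted p = 0.712), with no filter on low values (limma, adjusted p = 0.0806), and when control sample 1, control sample 3, stone sample 1 or stone sample 3 was left out (limma, adjusted p = 0.0586 to 0.0886). Rpl41, which encodes a very short basic peptide, measured 1486, 1670 and 1309 FPKM in control and 1696, 1499 and 1716 FPKM in stone samples, with overlapping groups (log2 fold change 0.14, limma, adjusted p = 0.307).

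In the small subunit the leading gene was Rps18, whose protein sits in the head and touches the large subunit. Rps18 measured 540.4, 589 and 501 FPKM in control and 990.2, 923 and 949 FPKM in stone samples, a rise of 0.81 (SE 0.081, limma, adjusted p = 0.000269). Rps4x, from the X chromosome, rose from 440 ± 43.1 to 709 ± 8.98 FPKM (log2 fold change 0.69, limma, adjusted p = 0.000565). Rps27, a zinc finger protein, had the highest level of the 79, at 1917, 1709 and 1981 FPKM in control and 3025, 2850.5 and 2858 FPKM in stone samples. It rose by 0.64 (limma, adjusted p = 0.00114). Unlike most members, Rps27 was lowest in control sample 2.

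Smaller differences were found for Rpsa and Rps26. Rpsa, also known as the laminin receptor precursor, measured 363, 420.4 and 323 FPKM in control and 456, 450.3 and 468 FPKM in stone samples. The groups did not overlap, and the rise of 0.32 passed narrowly (limma, adjusted p = 0.0276). It was lost with median-of-ratios factors (0.06, limma, adjusted p = 0.685) and in 5 of the 6 fits that left out a sample, the exception being control sample 2 (limma, adjusted p = 0.0531 to 0.0794 in the 5). Rps26, which lines the mRNA exit channel, measured 1156, 1427 and 1077 FPKM in control and 1403, 1390 and 1510 FPKM in stone samples. Control sample 2 lay within the stone range (log2 fold change 0.24, limma, adjusted p = 0.109), and without it Rps26 passed at 0.36 (limma, adjusted p = 0.0123).

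Rps6, the phosphorylation target of S6 kinase downstream of mTORC1, shares its sequence with another row of the table. It was listed at 22.6, 27.9 and 25.2 FPKM in control and 22.0, 26.0 and 24.3 FPKM in stone samples, far under the median level of the 79 genes, 574 FPKM. The groups overlapped (log2 fold change -0.06, limma, adjusted p = 0.603). Rps6-ps4, an annotated pseudogene at chr2:75190995-75191854 that the rule leaves out, was listed at 635, 635 and 613 FPKM in control and 861, 888 and 930.5 FPKM in stone samples. Over the 750 aligned bases the GENCODE M21 transcript of Rps6-ps4 is 100% identical to that of Rps6, so reads from either cannot be told apart there. Rps6-ps4 rose by 0.51 (limma, adjusted p = 0.000772, and 0.0367 with median-of-ratios factors). The sum of both rows was 653 ± 12.6 FPKM in control and 917 ± 36.2 FPKM in stone samples, a ratio of 1.40.

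Copies of this kind limit other members too. Among GENCODE M21 transcripts 27 of the 79 genes had at least 1 other gene whose transcript matched at 95% identity or more over at least 80% of their length, most of them pseudogenes, with 31 such genes for Rpl7a, 22 for Rps12 and 18 for Rps2. Members described above with such copies were Rps6 (10), Rpl10 (9), Rpl36, Rpl3 and Rps4x (7 each), Rpl26 (6) and Rps18 (5). Rpl36a, Rps27, Rps28, Rplp1 and Rplp2 had 1 each. Only 4 members had such a partner with its own row in the table. The treatment of reads that match several copies is not stated in these sources, so the level of each of the 27 genes is uncertain. Low rows were Rps20, at 29.4 ± 4.66 and 43.9 ± 2.27 FPKM, and Rps15a, at 21.3 ± 1.01 and 30.7 ± 0.764 FPKM in control and stone samples (SD, n = 3 each). Both rose, by 0.57 and 0.51 (limma, adjusted p = 0.00438 and 0.000555), and neither had a near-identical gene by this measure, although the Rps20 transcript compared was the longest of the 79, at 3706 bases. Why they lay so far under the other members was not tested.

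The paralogs Rpl3l and Rps27l did not rise with their parents. Rpl3l, which replaces Rpl3 in the ribosomes of striated muscle and lies at chr17:24727826-24736143, measured 2.56, 3.46 and 2.39 FPKM in control and 0.98, 1.43 and 1.20 FPKM in stone samples. It is the member that fell, by 0.78 (limma, adjusted p = 0.00344, and 0.00175 with median-of-ratios factors), with no overlap between groups. Its parent Rpl3 measured 309, 337 and 304 FPKM in control and 522, 478 and 486 FPKM in stone samples. Rpl3l was thus 0.880 ± 0.128% of Rpl3 in control and 0.245 ± 0.0556% in stone kidneys (SD, n = 3 each, exact permutation test, two-sided, p = 0.1, the smallest that 3 against 3 can give). The level of Rpl3l was near the limit for testing throughout.

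Rps27l, a p53-induced paralog of Rps27 at chr9:66944624-66949522, was well expressed and did not pass the test, while its parent rose. It measured 307, 361 and 275 FPKM in control and 303, 280.1 and 273 FPKM in stone samples, with overlapping groups (log2 fold change -0.13, limma, adjusted p = 0.314). With median-of-ratios factors Rps27l was called lower, at -0.39 (limma, adjusted p = 0.0435), while quantile normalization and equal FPKM sums put it at 0.07 and 0.15 without a call. Against Rps27 in the same sample, Rps27l stood at 13.9% to 21.1% in control and 9.56% to 10.03% in stone samples. The ratios did not overlap (exact permutation test, two-sided, p = 0.1, the smallest possible). The retrogene Rps27rt, whose transcript is 100% identical to that of Rps27 over 341 bases, was listed at 129 ± 36.8 and 180 ± 31.6 FPKM (limma, adjusted p = 0.0715).

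Rpl36al, a paralog of Rpl36a outside the name rule, had a smaller rise than its parent. Rpl36al rose from 303 ± 3.65 to 343 ± 16.1 FPKM, a change of 0.18 (limma, adjusted p = 0.0377), and stood at -0.08 with median-of-ratios factors (limma, adjusted p = 0.458). As a share of Rpl36a it was 80.7%, 83.6% and 90.1% in control and 50.9%, 62.6% and 53.8% in stone samples (exact permutation test, two-sided, p = 0.1). By contrast Rpl22l1 and its parent Rpl22 gave overlapping ratios, 89.8 ± 3.85% and 94.0 ± 16.5% (exact permutation test, two-sided, p = 0.8). With Benjamini-Hochberg adjustment none of the 8 ratios computed could pass at this sample number. The retrogene Rpl32l, at 6.98 ± 2.55 and 8.86 ± 0.810 FPKM, did not pass (limma, adjusted p = 0.189). Rpl10l, Rpl39l and Rps4l fit the name rule but had no row under these symbols in the table.

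**Figure D4:**
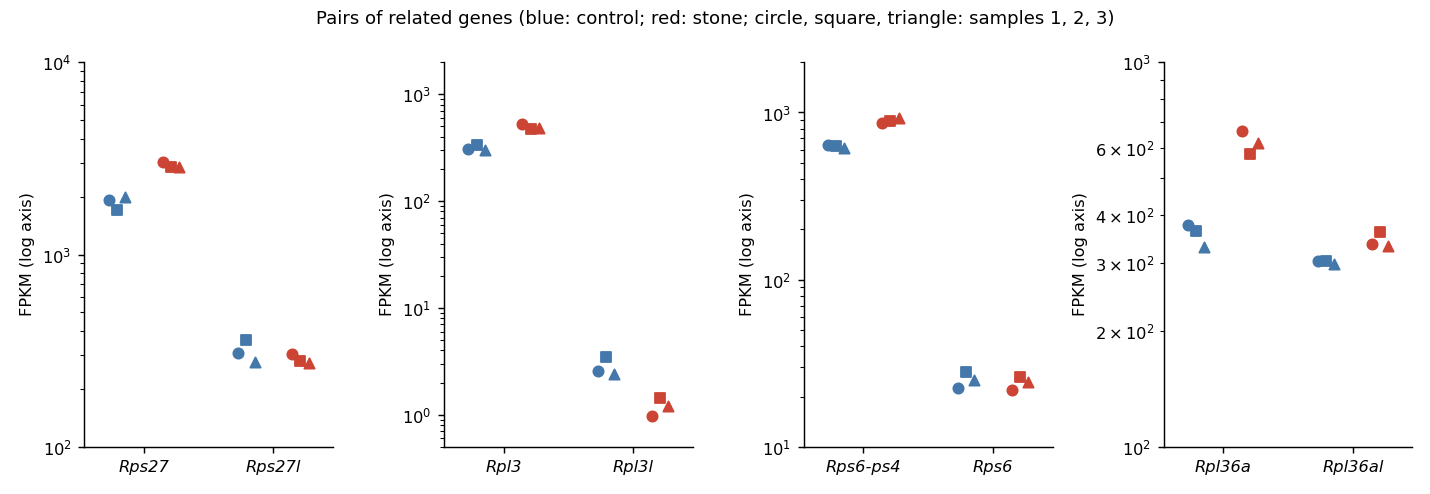
FPKM on a log axis for 4 pairs of related genes, with blue marks for control and red marks for stone samples and shapes for the sample number. Rps27, Rpl3, Rps6-ps4, Rpl36a and Rpl36al have red marks above all blue marks, while Rps27l and Rps6 overlap between groups and Rpl3l has red marks below all blue marks.

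To compare the members with each other, each sample was rescaled so that the typical ribosomal protein gene had the same level in all 6. This scaling was chosen after the joint rise had been seen. In that fit 9 of the 79 members stood above the typical member, a share near the 10.7% of all tested genes called higher. Another 10 stood below it, beside 37.9% of all tested genes called lower, and 60 did not pass. The scaling centres the members and not the other genes. The shares of all tested genes are therefore no neutral background in this fit. In each of the 6 fits that left out a sample, Rpl12, Rps18, Rps16, Rpl10a and Rpl36a were above and Rps27l, Rpl3l, Rpl35a, Rpl41 and Rps6 below. The place of Rps6 is uncertain, since Rps6-ps4 shares its sequence. Rps6 and Rps6-ps4 summed had a stone over control ratio of 1.405, beside 1.385 for the 79 genes summed. Rps16, whose protein reaches toward the bound tRNA, was at 0.24 on this relative log2 scale (limma, adjusted p = 0.00926). Rpl35a stood at -0.28 (limma, adjusted p = 0.00709) and Rpl41 at -0.34 (limma, adjusted p = 0.00308). Rps27l at -0.61 and Rpl3l at -1.08 were the farthest below (limma, adjusted p = 0.00024 and 0.000377), and Rpl12 at 0.49 the farthest above (limma, adjusted p = 0.000462). The others above were Rpl36, Rpl5, Rps4x and Rplp0, and the others below Rps2, Rps29, Rpl28, Rps26 and Rpl26. These 9 calls were each lost when at least 1 sample was left out.

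Level did not order the changes by rank. Mean levels ran from 2.00 FPKM for Rpl3l to 2390 FPKM for Rps27, with 6 members under 100 FPKM, 57 from there to 1000 FPKM and 16 above. Across the 79 genes the log2 fold change and the log2 mean level had r = 0.42 and rho = -0.02, a description only, since genes share samples and are not replicates. With the length of the GENCODE transcript r was 0.09 and rho 0.22.

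**Figure D5:**
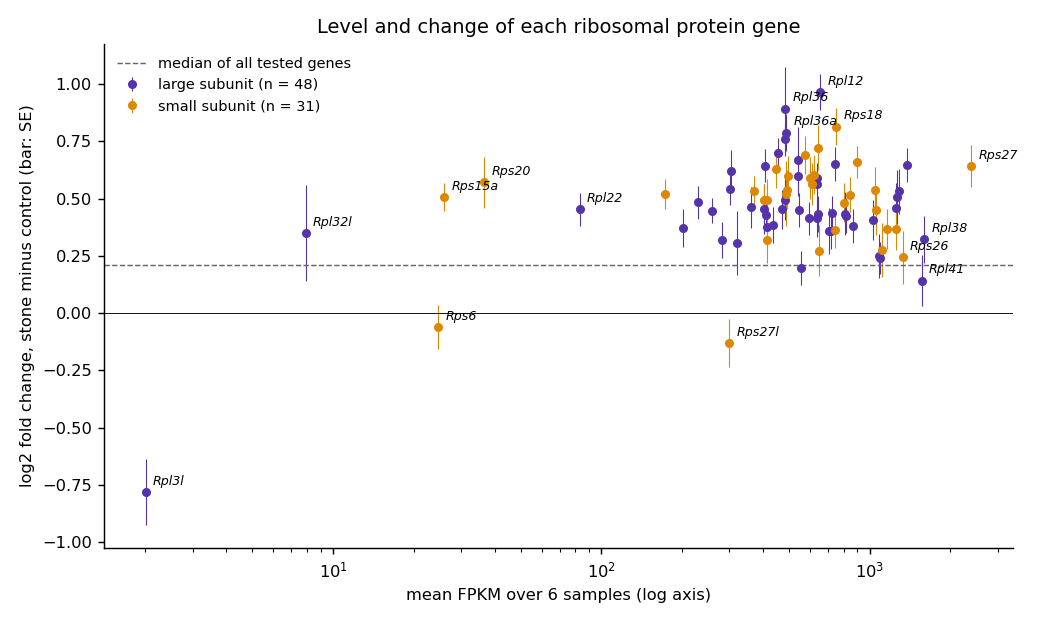
Log2 fold change with its SE (y axis) against mean FPKM over 6 samples (x axis, log) for the 79 genes, coloured by subunit. The dashed line is the median of all tested genes, 0.21. In all 49 genes lie between 0.4 and 0.7, with Rpl3l, Rps6 and Rps27l below 0 and Rpl12 at the top.

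Ribosomal protein genes that the name rule missed had a similar median. Of 7 such genes 5 rose (71.4%, against 43.5% of all tested genes) and 0 fell (against 13.9%) as deposited, with a median of 0.503. With median-of-ratios factors 2 rose (28.6%, against 22.5%) and 0 fell (against 26.2%). Rack1, a signalling scaffold on the small subunit, went up from 293 ± 25.5 to 462 ± 7.83 FPKM (limma, adjusted p = 0.000486), and Rps3a1 from 512 ± 28.2 to 757 ± 39.9 FPKM (limma, adjusted p = 0.000867). Fau, which encodes a ribosomal protein fused to a ubiquitin-like protein, rose by 0.51 (limma, adjusted p = 0.00183). Rpl7l1 did not pass (limma, adjusted p = 0.199).

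Other mRNAs of the TOP class were higher as well. Of 13 other genes known to carry a TOP sequence 12 rose (92.3%, against 43.5% of all tested genes) and 0 fell (against 13.9%). The median was 0.556. With median-of-ratios factors 6 rose (46.2%, against 22.5%) and 0 fell (against 26.2%). In each of the 13 the lowest stone sample exceeded the highest control sample, which held for 49.8% of all tested genes. Hnrnpa1, an RNA-binding protein gene, led with 59.1 ± 3.61 FPKM in control and 94.9 ± 1.62 FPKM in stone kidneys (limma, adjusted p = 0.000199).

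The rest of the translation machinery had smaller medians, and its counts stand beside 43.5% higher and 13.9% lower among all tested genes, or 22.5% and 26.2% with median-of-ratios factors. Of 30 initiation factor genes 16 rose (53.3%) and 2 fell (6.67%), with a median of 0.232 against 0.212 for all tested genes, and 5 rose and 8 fell with median-of-ratios factors. Eif6, which keeps the subunits apart until the large subunit is mature, went from 43.0 ± 5.43 to 78.2 ± 1.40 FPKM (limma, adjusted p = 0.000333), and Eif4g3 fell by 0.28 (limma, adjusted p = 0.01). Among 10 tested elongation and release factors 4 rose (40%) and 1 fell (10%), and 1 and 2 with median-of-ratios factors. Etf1 and Gspt1, the partners in termination, stood at 0.40 and -0.21 (limma, adjusted p = 0.00141 and 0.0238). Of 16 nascent chain factors 5 rose and 0 fell, led by Naca, which binds chains as they leave the ribosome, at 0.50 (limma, adjusted p = 0.000634). With median-of-ratios factors 2 rose and 6 fell.

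In the list of mTORC1 and TOP control 9 of 18 rose (50%, against 43.5% of all tested genes) and 1 fell (5.56%, against 13.9%). With median-of-ratios factors 1 rose (5.56%, against 22.5%) and 4 fell (against 26.2%). Mtor, the kinase itself, fell from 48.0, 42.8 and 49.0 FPKM in control to 22.7, 24.4 and 22.0 FPKM in stone samples, a log2 change of -0.98 (limma, adjusted p = 8.91e-05). Rragc, a GTPase that brings mTORC1 to the lysosome, rose by 0.36 (limma, adjusted p = 0.00195). Of 13 transcription factor genes tied to ribosomal protein promoters 8 rose (61.5%) and 0 fell, beside the same shares of all tested genes. With median-of-ratios factors 2 rose (15.4%) and 0 fell. Hcfc1 stood at 0.51 (limma, adjusted p = 0.00461). mRNA levels do not show mTORC1 activity, which was not measured.

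Chaperones, importins and rescue factors moved in both directions. Of 12 genes for chaperones and importins of ribosomal proteins 7 rose (58.3%, against 43.5% of all tested genes) and 2 fell (16.7%, against 13.9%). With median-of-ratios factors 4 rose (33.3%, against 22.5%) and 3 fell (against 26.2%). Kpnb1, an importin, stood at 24.4 ± 1.61 FPKM in control and 45.1 ± 0.622 FPKM in stone kidneys (limma, adjusted p = 8.93e-05), and Bccip, a chaperone of Rpl23, fell by 0.31 (limma, adjusted p = 0.0101). Of 12 tested genes of ribosome rescue 4 rose (33.3%) and 1 fell (8.33%), no larger a share than among all tested genes, and 1 and 3 with median-of-ratios factors. With equal FPKM sums 9 of these 12, 9 of the 10 elongation and release factors and 27 of the 30 initiation factors were higher and 0 lower in each list, against 68.5% and 6.47% of all tested genes. Zfp598, the sensor of collided ribosomes, stood at 0.52 and Rnf10, a ligase for stalled small subunits, at -0.22 (limma, adjusted p = 0.00318 and 0.0131).

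Markers of several other cell types were higher in stone kidneys too, and those of red blood cells were lower. The counts are as deposited and stand beside 43.5% higher and 13.9% lower among all tested genes. Macrophage markers rose in 6 of 7, with summed levels of 64.7 to 72.0 FPKM in control and 190 to 496.5 FPKM in stone samples. All 6 markers of dividing cells rose, from sums of 2.83 to 3.59 FPKM to sums of 23.4 to 31.6 FPKM, and so did all 6 of fibroblasts and myofibroblasts, from 34.9 to 46.2 FPKM to 108 to 184 FPKM. Endothelial markers rose in 4 of 6 and podocyte markers in 4 of 5. With median-of-ratios factors 4 endothelial and 3 podocyte markers rose (against 22.5% of all tested genes). After quantile normalization 4 and 2 rose (against 22.4%). Red blood cell markers fell in 5 of 5 tested, from sums of 2169 to 3170 FPKM to sums of 598 to 759 FPKM. Markers of the thick limb and distal tubule were higher in 1 and lower in 2 of 6. For T and NK cells 0 of 6 markers were abundant enough to test, with sums of 2.08 to 3.08 FPKM and 1.44 to 1.66 FPKM, and for B and plasma cells 1 marker could be tested and did not pass. Of these lists 0 markers were at 0 in all 6 samples. The part of cell make-up in the ribosomal protein levels was not tested.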

How the data were processed

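Kidney RNA of 3 control and 3 stone samples was sequenced from libraries made with dUTP in the second strand, per the labels' protocols. HISAT2 2.0.4 and GRCm38.p6 are named in the submitters' processing notes, and no source used here names the quantification program. Values are FPKM as computed and deposited by the authors, so no count model was used, depth is unknown and no counting intervals are given. 0 columns belonged to other samples. The 12319 genes averaging 1 FPKM or more (5614 were left out) were tested on log2(FPKM + 1) with limma 3.58.1 in R 4.3.3 (lmFit, eBayes with trend), two-sided, with Benjamini-Hochberg adjustment over all of them and a threshold of 0.05. A fold change on this scale understates that of low genes. Nothing says that the samples came from separate mice, so p-values measure the spread between samples, which may be technical. The fit was tested on simulated data.

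Members and gene lists were chosen with earlier results of these data known. Named members are the 5 largest called rises and any called falls without overlap, the 5 most abundant, paralogs and parents, stalk genes, and Rps6, Rpl5, Rpl11 and Rpsa. In each list on ribosomes or translation, though not in the marker lists or the comparison groups, the called gene with the smallest p in each direction was named, and other genes were picked after their values were seen. Alternatives were 4 other scalings, a pseudocount of 0.1, no filter, array weights, a replicate block and leaving out each sample. Transcript identity was computed with BLAST on GENCODE M21, and positions and promoters came from RefSeq for GRCm38.p6. A single list gene, counted in its list, is left out by name.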

Additional observations from a re-analysis of the deposited data

How the results depend on the processing

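Scaling moved the counts most. All tested genes gave 5356 higher and 1711 lower as deposited, 2776 and 3222 after median-of-ratios scaling, 2762 and 3108 after quantile normalization, and 8440 and 797 with equal FPKM sums. For the 79 ribosomal protein genes median-of-ratios scaling gave 25 higher and 3 lower, a median of 0.205 and a summed ratio of 1.16, and equal FPKM sums a median of 0.74 and a ratio of 1.68. Their median minus that of all tested genes rose to 0.546 after quantile normalization. Leaving out a sample gave 63 to 73 ribosomal protein genes higher, where 4265 to 5242 of all tested genes were higher. The median of the ribosomal protein genes was then 0.409 to 0.549, with 5 to 8 above and 6 to 9 below the typical member. The counts above and below were lowest, 5 and 6, without control sample 1 and without stone sample 2. Calls of Rps28, Rpl34 and Rpl26 were lost without control sample 1, Rpl34 also without stone sample 3, and Rpl26 without any stone sample.

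The direction of 4 named members turned in some settings, in each case without a call. After median-of-ratios scaling Rpl41 stood at -0.115 and Rps26 at -0.013. Rps27l stood at 0.067 after quantile normalization and 0.148 with equal FPKM sums. Rps6 stood at 0.207 with equal FPKM sums and 0.103 with array weights, and leaving out a sample put it between -0.135 and 0.011. Of 308 values of the 22 named members 274 kept direction and call. The cause was not tested. With the replicate block 67 ribosomal protein genes were higher and 1 lower, beside 4861 and 1517 of all tested genes. Same-numbered samples did not deviate together (r = 0.0075, -0.22 and -0.0397 across genes), so the numbers were not taken as pairs.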
